A study of Mus musculus with 12 samples.

Results

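The C-type lectin receptors described here are 10 genes of mouse chromosome 6 that encode pattern recognition receptors of myeloid cells. They are Clec9a, Clec4a1, Clec4a2, Clec4a3, Clec4d, Clec4e, Clec4n, Clec5a, Clec7a and Clec12a. They were taken by symbol from the 23420 genes of the deposited count table, and all 10 passed the filter on low counts. The set was put together with this comparison of the ages already known, and Clec9a was included for its lower level in aged mice. The values of the 10 genes between the ages are therefore given as a description. Whether a receptor passed the threshold in the fit over all genes is part of that description and is not evidence for the choice.

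The RNA came from M-MDSCs, immature myeloid cells of the bone marrow that were gated as CD11b+Ly6G-Ly6Chi and sorted. The study compared 6 young mice, aged 6 months, with 6 aged mice, aged 24 months. The mice of both ages were males of the C57BL/6JNIA strain, the labels name neither a treatment nor a genetic change, and the cells of each mouse gave a library of its own. The libraries were rich in neutrophil granule transcripts, and how pure the sorted cells were cannot be told from the counts, which bears on every level below. The 12 neutrophil markers summed to 147533 to 173769 CPM (counts of a gene over the TMM-normalized library total) in aged mice and to 95505 to 145927 CPM in young mice. Classical monocyte markers summed to 4325 to 5378 CPM in aged and to 4885 to 5211 CPM in young mice, and Ly6c2, a gene of the sorted antigen, was measured at 727 ± 74.6 CPM (SD, n = 6) in aged and at 500.3 ± 100 CPM (SD, n = 6) in young mice. Library totals were 8737941 to 16300374 fragments in aged and 4613239 to 9079237 in young mice, so that 3 counts stood for 0.188 to 0.35 CPM and for 0.306 to 0.643 CPM. The labels give no date or batch, but sample numbers in the column names ran from 11 to 16 for young and from 17 to 26 for aged mice, so that age and the order of these numbers cannot be told apart. The libraries numbered 11 to 19 without a gap, 6 young and 3 aged mice, were also fitted alone. In that fit every young mouse still had a lower number than every aged mouse, so it cannot tell age from this order. It left out aged 5, aged 6 and aged 7, so that a call lost in it also reflects fewer mice. Several libraries stood apart. Aged 1 had the highest sum of resident macrophage markers, 1177 CPM against 55.1 to 72.3 CPM in young mice, followed by aged 2 with 356 CPM. Young 5 and young 6 had the lowest neutrophil sums, 95505 and 97345 CPM, and the highest sums of proliferation genes, 1440.1 and 1410.5 CPM against 756 to 934 CPM in the other young mice.

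C-type lectin receptors recognize sugars, lipids and molecules of dying cells. Activating receptors either carry a tyrosine motif of their own, as Clec7a and Clec9a do, or pair with the adaptors Fcer1g or Tyrobp, and then signal through the kinase Syk to the complex of Card9, Bcl10 and Malt1. Others, such as Clec4a2 and Clec12a, carry an inhibitory motif and recruit phosphatases such as Ptpn6, Ptpn11 and Inpp5d. In mice most of these genes lie in a pair of clusters on chromosome 6, named after Clec4n (Dectin-2) and Clec7a (Dectin-1).

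Clec9a had a far lower level in aged mice, Clec4n and Clec7a had higher levels, Clec12a was higher by a small amount, and the 6 other genes were not called. A gene is called where the adjusted p-value of edgeR's quasi-likelihood test over all 9742 genes tested was under 0.05. By that rule 3 of the 10 genes were called higher and 1 was called lower, which is 40% of them, where 45.4% of all genes tested were called. Of all genes tested, 22.4% were called higher and 23.0% lower. The median log2 fold change of the 10 genes was 0.21, against 0.01 for all genes tested. Clec9a and Clec12a were without overlap between the ages, as were 21.8% of all genes tested. The set was chosen from this contrast, so nothing is read from these shares. In libraries of sorted cells, fewer cells of a type and less RNA of a gene per cell cannot be told apart.

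**Figure D1:**
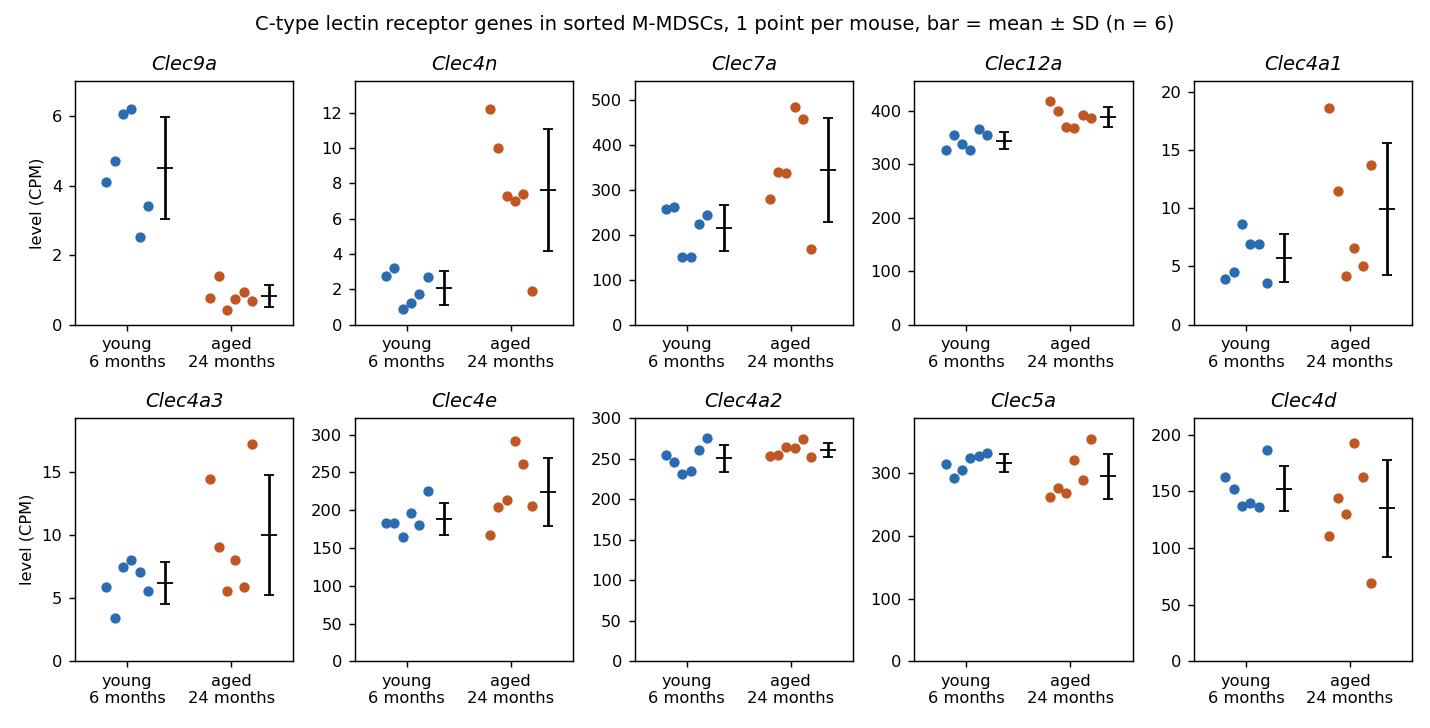
Level of each of the 10 genes in CPM on linear axes from 0, with 1 point per mouse (young in blue, aged in orange) and the mean ± SD of the 6 mice of each age in black. Clec9a lies between 0.428 and 1.40 CPM in aged mice and between 2.54 and 6.21 CPM in young mice, while Clec4a2 lies between 231 and 276 CPM over both ages.

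The expression levels of the 10 genes, set side by side per kilobase of exon, fell into a high and a low tier in both ages. In aged mice Clec12a stood at 175 ± 8.41 CPM per kb, Clec7a at 151 ± 51.1, Clec4d at 101 ± 31.9, Clec4a2 at 99.6 ± 3.30, Clec4e at 88.8 ± 17.9 and Clec5a at 77.2 ± 9.46 (SD, n = 6). Neighbours in this order overlapped between mice and were not separated beyond their spread. The lower tier held Clec4a3 at 7.55 ± 3.57, Clec4a1 at 6.38 ± 3.64, Clec4n at 6.12 ± 2.78 and Clec9a at 0.252 ± 0.0988 CPM per kb in aged mice. Clec4a3, Clec4a1 and Clec4n overlapped with each other, and Clec9a lay below each of them in every aged mouse. In young mice Clec12a again stood highest with 155 ± 7.16 CPM per kb, above every other gene in every mouse. Clec4d (114 ± 15), Clec4a2 (95.8 ± 6.46), Clec7a (94.2 ± 22.7), Clec5a (82.5 ± 3.85) and Clec4e (74.8 ± 8.33) followed with overlapping values. The lower tier of the young mice held Clec4a3 at 4.69 ± 1.26, Clec4a1 at 3.69 ± 1.32, Clec4n at 1.67 ± 0.758 and Clec9a at 1.37 ± 0.442 CPM per kb. Clec4n and Clec9a, apart in aged mice, overlapped in young mice.

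Clec9a encodes DNGR-1, a receptor for actin filaments exposed by dead cells that is known from conventional type 1 dendritic cells and their precursors. It lies at chr6:129408862-129424764 on the plus strand of mm10, with 7 exons. In the aged mice it was measured at 0.780 CPM in aged 1, 1.40 in aged 2, 0.428 in aged 4, 0.739 in aged 5, 0.947 in aged 6 and 0.689 in aged 7. In the young mice it was measured at 4.10 CPM in young 1, 4.72 in young 2, 6.08 in young 5, 6.21 in young 6, 2.54 in young 9 and 3.43 in young 10. The young and aged values thus did not overlap. On the log2 scale the difference was -2.45 (standard error 0.287), a 5.47-fold lower level in aged mice. The gene rests on few fragments, 4 to 12 in aged and 21 to 61 in young mice, and in aged mice counting error alone gives a coefficient of variation of 34.0%, beside the 39.2% measured between mice. Young 5 and young 6 had the highest levels, and the log2 fold change without both was -2.15. It lay between -2.63 and -2.33 when each mouse was left out in turn.

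The defining markers of conventional type 1 dendritic cells other than Clec9a were at or near 0 in both ages. Xcr1 averaged 0.0299 CPM in aged and 0.0495 CPM in young mice, and Batf3 averaged 0.270 and 0.345 CPM. Clnk was at 0 in all 12 mice, and Tlr3, Itgae and Gcsam averaged under 0.5 CPM in each age. Cadm1, an adhesion molecule of several cell types, averaged 6.12 CPM in aged and 0.645 CPM in young mice and did not pass the filter. Of the 10 genes of that list 3 passed the filter. Naaa, a lysosomal amidase, was higher in aged mice (log2 fold change 0.27, adjusted p = 0.0138 from edgeR), and without young 5 and young 6 it was not called (adjusted p = 0.0657), nor without TMM factors (adjusted p = 0.0714) or with the replicate block (adjusted p = 0.0506). In the replicate block, which takes the mouse numbers as a factor, only mice numbered 1, 2, 5 and 6 bear on age. A call lost in that fit, here and below, thus also reflects fewer mice. Wdfy4, which takes part in cross-presentation, was lower (-0.35, adjusted p = 0.00185 from edgeR), but with a correction for gene length its log2 fold change was 0.15. Irf8, a transcription factor of monocytes and dendritic cells, was not called (0.51, adjusted p = 0.375). The whole list summed to 420.1 to 474 CPM in aged and to 472 to 599.9 CPM in young mice, most of it from Wdfy4. Of the plasmacytoid dendritic cell markers, 3 passed the filter. Runx2 was lower (-0.28, adjusted p = 0.0186), with 0.17 under the correction for gene length and no call with the replicate block (adjusted p = 0.0671), without aged 1 and aged 7 (adjusted p = 0.097) or among sample numbers 11 to 19 (adjusted p = 0.107), and Tcf4 (-0.01, adjusted p = 0.976) and Bst2 (0.44, adjusted p = 0.314) were not called. Siglech, the defining marker of those cells, averaged 0.0194 CPM in aged and 0.034 CPM in young mice.

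Of 10 markers of dendritic cells in general 6 were tested, and Cd74 (2.15, adjusted p = 0.00777), H2-Aa (2.36, adjusted p = 0.00447), H2-Ab1 (2.30, adjusted p = 0.00548) and H2-Eb1 (2.39, adjusted p = 0.00409), genes of MHC class II presentation that B cells and macrophages also express, were called higher in aged mice by edgeR, 4 of 6 beside 22.4% of all genes tested. Ciita, the regulator of these genes (0.68, adjusted p = 0.34), and Itgax (0.05, adjusted p = 0.85) were not called. The list summed to 73.1 to 1203 CPM in aged and to 72.6 to 103 CPM in young mice, highest in aged 1. Without aged 1 the 4 genes were still called, at 1.14 to 1.61 on the log2 scale, and with limma-voom none of them was, at adjusted p-values of 0.0539 to 0.0785. With the replicate numbers as a block Cd74 was not called (adjusted p = 0.0769). Zbtb46 and Flt3, defining markers of conventional dendritic cells, averaged under 0.5 CPM in each age. Of 7 markers of conventional type 2 dendritic cells 4 were tested and Klf4 was called lower (-1.13, adjusted p = 0.0428 from edgeR), 1 of 4 beside 23.0% of all genes tested. Its log2 fold change was -0.47 without young 5 and young 6 and no longer called. Klf4 also lost its call in 7 of the 12 fits without 1 mouse and with the replicate block (adjusted p = 0.0955), upper quartile factors (adjusted p = 0.0505) and the correction for gene length (adjusted p = 0.053). Among sample numbers 11 to 19 Klf4 was at -1.36 and not called (adjusted p = 0.0646). The list of type 2 markers summed to 693 to 776 CPM in aged and to 708 to 774 CPM in young mice. Most of this came from Sirpa, with means of 717 CPM in aged and 733 CPM in young mice. Of its other genes the highest means were those of Cd1d1 in aged mice, 2.91 CPM, and Klf4 in young mice, 2.74 CPM. These markers were named after their values were seen, and their part in the level of Clec9a was not tested.

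Of 10 proliferation genes, 3 were called, each lower in aged mice, a share not far from the 23.0% of all genes tested that were called lower. Mki67, a marker of cycling cells, was measured at 63.5 to 173 CPM in aged and at 229 to 674 CPM in young mice (log2 fold change -2.01, adjusted p = 0.000134 from edgeR). Young 5 and young 6 were highest for Mki67, with 674 and 598 CPM, as they were for Clec9a, and without both the log2 fold change of Mki67 was -1.51. Aged 7 had the highest Mki67 of the aged mice, 173 CPM, with Clec9a at 0.689 CPM. Cenpf (-1.57, adjusted p = 0.000504) and Top2a (-0.62, adjusted p = 0.0315), genes of chromosome segregation and of DNA untangling, were also called lower by edgeR, and without young 5 and young 6 Cenpf was at -1.26 and Top2a was not called (adjusted p = 0.18). Top2a also lost its call in 6 of the 12 fits without 1 mouse and with the correction for gene length (adjusted p = 0.124). Without aged 1 and aged 7 Top2a was called at -0.96 (adjusted p = 0.000568). The 7 other genes of the list, Ccnb1, Cdk1, Aurkb, Birc5, Tpx2, Mcm5 and Pcna, were not called, with log2 fold changes from -0.39 for Tpx2 to 0.17 for Ccnb1. Tpx2 was called lower in 3 of the 12 fits without 1 mouse and without aged 1 and aged 7 (-0.60, adjusted p = 0.00381). The part of these proliferation genes in the level of Clec9a was not tested.

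Clec9a was also compared with every other tested gene of at least 1 CPM by the likeness of its profile over the 12 libraries, measured as the root mean square difference of log2 CPM after each gene was centred on its mean. Over 9736 genes the median difference was 1.18. The closest were Kcnq1ot1, a long noncoding RNA of an imprinted locus, with 0.405, 4930431P03Rik with 0.433, Zfp467, a zinc finger gene, with 0.469, Syne2, a large protein of the nuclear envelope, with 0.478, and 9930111J21Rik1 with 0.480. Their log2 fold changes were -1.92, -1.83, -1.64, -1.76 and -1.55 in that order, and a fall of like size is what this measure of likeness selects, so that it is no result about them. Kcnq1ot1 is counted over a single exon of 83437 bases, and its log2 fold change was -0.18 with a correction for gene length, where that of Syne2 was -0.82 and that of Clec9a was -2.40. The likeness rests on few fragments of Clec9a in aged mice and describes these 12 libraries.

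Clec9a lies in the Dectin-1 cluster between Clec12a and Clec7a, which are expressed at far higher levels. The promoter windows of these 3 neighbours are shown because the genes differ in direction between the ages within 122534 bases. Each is the run of 250 bases before the gene's start in RefSeq (GRCm38.p6), written 5′ to 3′ on the gene's own strand, with matches to the searched motifs in capitals. The windows are chr6:129408612-129408861 on the plus strand for Clec9a, chr6:129349994-129350243 on the plus strand for Clec12a and chr6:129472780-129473029 on the minus strand for Clec7a.
Clec9a: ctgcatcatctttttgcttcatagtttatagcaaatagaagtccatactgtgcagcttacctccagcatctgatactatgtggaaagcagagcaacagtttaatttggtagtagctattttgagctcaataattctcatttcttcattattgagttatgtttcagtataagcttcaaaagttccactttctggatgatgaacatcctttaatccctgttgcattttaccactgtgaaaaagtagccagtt
Clec12a: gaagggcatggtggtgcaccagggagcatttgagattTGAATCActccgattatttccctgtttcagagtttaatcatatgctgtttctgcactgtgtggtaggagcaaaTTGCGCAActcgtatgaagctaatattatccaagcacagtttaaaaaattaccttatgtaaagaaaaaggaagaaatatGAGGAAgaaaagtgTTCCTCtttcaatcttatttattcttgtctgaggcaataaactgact
Clec7a: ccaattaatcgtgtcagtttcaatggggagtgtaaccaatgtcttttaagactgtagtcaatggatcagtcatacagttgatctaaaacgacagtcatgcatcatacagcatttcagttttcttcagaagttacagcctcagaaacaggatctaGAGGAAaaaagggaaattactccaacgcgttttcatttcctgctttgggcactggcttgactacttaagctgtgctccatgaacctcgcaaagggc

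Motifs of myeloid transcription factors were searched on both strands of these windows, and matches of different motifs did not overlap. The letters were GAGGAA for the core of PU.1 sites, TTGCNNAA for C/EBP, TGANTCA for AP-1 and, for interferon response elements, GAAA followed by any 2 bases and again GAAA. The window of Clec9a held none of the 4. That of Clec12a held GAGGAA 61 to 56 bases before the start and on the other strand, as TTCCTC, 47 to 42 bases before it, together with TTGCGCAA at 140 to 133 and TGAATCA at 213 to 207 bases before it. That of Clec7a held GAGGAA 96 to 91 bases before the start. RefSeq entries were matched for 9 of the 10 genes, all but Clec4n, and GAGGAA was found in 7 of the 9 windows, with Clec9a and Clec4a2 as the exceptions. For Clec4a3 a later RefSeq start was taken, because the stretch shared with Clec4a1 lies before it. For the other genes the start nearest to that of the counted gene was taken, and for all mouse promoters the first one listed. The start taken for Clec4a3 lies inside the gene as it was counted, so that its window is partly within that gene. The match of Clec4a3, among the 7, thus lies in a window chosen for its sequence. GAGGAA occurs in 23.1% of the 27025 mouse promoter windows of this length. The C/EBP letters were found in 2 of 9 windows, Clec4e and Clec12a, against 9.55% of all windows. AP-1 letters were found in 1 of 9, against 6.87%, and the interferon response letters in 0 of 9, against 3.04%. The motifs were chosen with the levels known, and a match is a description of the letters.

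Clec4n encodes Dectin-2, which binds mannans of fungi and signals through Fcer1g. It lies at chr6:123229843-123247024 on the plus strand, with 6 exons. Its levels were 12.2 CPM in aged 1, 10 in aged 2, 7.27 in aged 4, 7.02 in aged 5, 7.38 in aged 6 and 1.88 in aged 7. In the young mice they were 2.73 CPM in young 1, 3.22 in young 2, 0.868 in young 5, 1.22 in young 6, 1.73 in young 9 and 2.72 in young 10. The first 5 of these aged mice lay above all young mice, and aged 7 lay within the young range. This gave a log2 fold change of 1.92 (standard error 0.398), a 3.80-fold higher level in aged mice, which was 2.15 without aged 7 and 1.54 without young 5 and young 6. Counts were 30 to 109 in aged and 8 to 23 in young mice. Resident macrophage markers were highest in aged 1 and aged 2, where Clec4n was highest too. In aged 5 those markers summed to 62.8 CPM, within the young range, with Clec4n at 7.02 CPM. In aged 7 they summed to 196 CPM, with Clec4n at 1.88 CPM. All 10 tested genes of that list were called higher in aged mice, beside 22.4% of all genes tested. Without aged 1 and aged 7 the log2 fold change of Clec4n was 2.01. The part of macrophage RNA in the level of Clec4n was not tested.

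Clec7a encodes Dectin-1, the receptor for beta-glucans of fungal cell walls. It lies at chr6:129461591-129472777 on the minus strand, with 6 exons. Its levels were 279 CPM in aged 1, 339 in aged 2, 338 in aged 4, 485 in aged 5, 457 in aged 6 and 169 in aged 7. In the young mice they were 257 CPM in young 1, 262 in young 2, 149.5 in young 5, 151 in young 6, 223 in young 9 and 245 in young 10. The groups overlapped through aged 7, which lay below 4 of the 6 young mice, and young 5 and young 6 were the lowest mice of all. Clec7a had a log2 fold change of 0.69 (standard error 0.219), a 1.61-fold higher level in aged mice. Without young 5 and young 6 it was 0.46 and the gene was no longer called. Without aged 7 it was 0.83, and without aged 1 and aged 7 it was 0.93.

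Clec12a encodes an inhibitory receptor for uric acid crystals of dead cells, and had the highest mean level per kilobase of the 10 genes, although in aged 5 and aged 6 Clec7a lay above it. It lies at chr6:129350244-129365303 on the plus strand, with 6 exons. Its levels were 368 to 417 CPM in aged mice (median 389) and 327 to 365 CPM in young mice (median 345). The groups did not overlap, with aged 5 at 368 CPM as the lowest aged mouse and young 9 at 365 CPM as the highest young one. The log2 fold change was 0.18 (standard error 0.0571), a 1.13-fold higher level in aged mice, and the gene varied little within an age, with coefficients of variation of 4.81% and 4.62%. The call was lost under several settings. The log2 fold change was 0.13 without young 5 and young 6, 0.16 without young 6, 0.10 with a correction for gene length, 0.17 with no filter on low counts, 0.23 with the replicate numbers as a block and 0.09 without TMM factors, and in each of these fits the gene was not called.

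**Figure D2:**
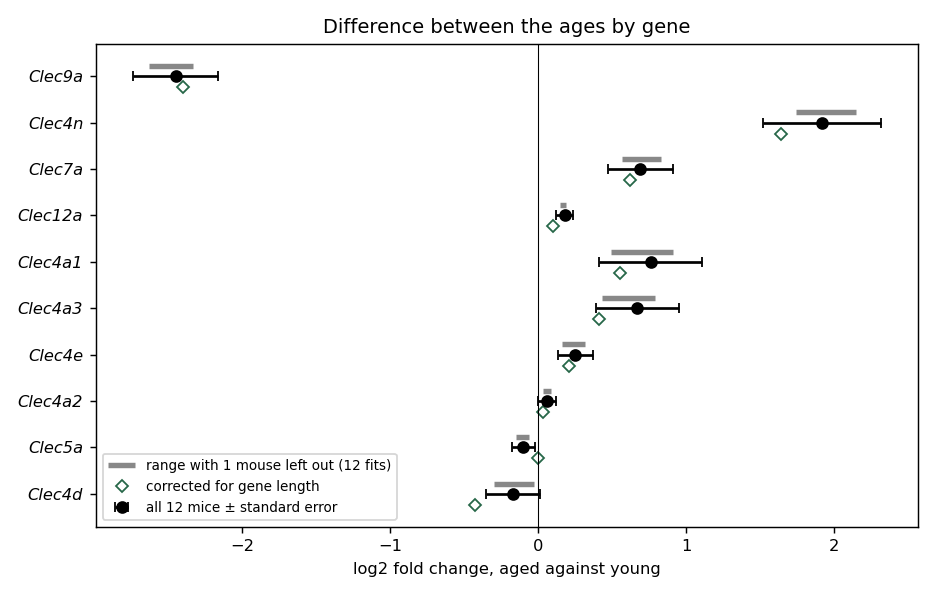
Log2 fold change of each gene in aged against young mice, with its standard error (black), the range when each of the 12 mice is left out in turn (grey bar) and the value with a correction for gene length (green diamond). Clec9a stays between -2.63 and -2.33 and Clec4n between 1.74 and 2.15 in the fits without 1 mouse, and Clec5a and Clec4a2 stay near 0.

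Clec4a1 and Clec4a3 encode DCIR4 and DCIR3, relatives of the inhibitory receptor DCIR. Clec4a1 lies at chr6:122921848-122934619 with 6 exons and Clec4a3 at chr6:122952515-122969878 with 7 exons, both on the plus strand. Clec4a1 was measured at 18.6 CPM in aged 1, 11.5 in aged 2, 4.17 in aged 4, 6.56 in aged 5, 5.02 in aged 6 and 13.7 in aged 7, and at 3.55 to 8.68 CPM in young mice (median 5.71). Clec4a3 was measured at 14.5 CPM in aged 1, 9.09 in aged 2, 5.56 in aged 4, 8.04 in aged 5, 5.87 in aged 6 and 17.2 in aged 7, and at 3.43 to 8.05 CPM in young mice (median 6.46). Both genes were above the young range in the same 3 aged mice, aged 1, aged 2 and aged 7, and within it in aged 4, aged 5 and aged 6. Their log2 fold changes were 0.76 (standard error 0.346) and 0.67 (standard error 0.279), and neither was called. Leaving out aged 4 or aged 6 brought both under the threshold. Without aged 1 and aged 7 the log2 fold changes were 0.20 and 0.16. Resident macrophage markers summed to 1177 CPM in aged 1, 356 CPM in aged 2, 196 CPM in aged 7 and 189 CPM in aged 6. Their part in the levels of Clec4a1 and Clec4a3 was not tested. No run of 50 bases of the transcripts of Clec4a1 or Clec4a3 was found in transcripts of another gene.

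Clec4a2 encodes DCIR, an inhibitory receptor of dendritic cells and other myeloid cells. It lies at chr6:123122690-123143999 on the plus strand, with 8 exons. Its levels were 252 to 274 CPM in aged mice (median 259) and 231 to 276 CPM in young mice (median 250.1). The ages overlapped over most of their range, the log2 fold change was 0.06 (standard error 0.0586) and was -0.03 without TMM factors, and the coefficient of variation among aged mice was 3.32%, the lowest of the 10 genes, of which counting error gives 1.90%. Of its runs of 50 bases 6.83% occur in other genes too, mostly in Clec4a4, which averaged 0.175 CPM in aged and 0.220 CPM in young mice.

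Clec4e encodes Mincle, the receptor for trehalose dimycolate of mycobacteria, and Clec4d encodes MCL, which forms a complex with Mincle and shares its adaptor Fcer1g. The genes are neighbours, Clec4d at chr6:123262107-123275268 on the plus strand and Clec4e at chr6:123281789-123289871 on the minus strand, with 6 exons each. Clec4e was measured at 167 CPM in aged 1, 204 in aged 2, 213 in aged 4, 292 in aged 5, 261 in aged 6 and 205 in aged 7, and at 164 to 226 CPM in young mice (median 183). Clec4d was measured at 111 CPM in aged 1, 144 in aged 2, 130.5 in aged 4, 193 in aged 5, 163 in aged 6 and 69.4 in aged 7, and at 136 to 187 CPM in young mice (median 146). Aged 5 and aged 6 were the highest aged mice for Clec4d, Clec4e and Clec7a alike. Aged 7 was the lowest aged mouse for Clec4d and Clec7a and for Clec4n, but not for Clec4e, where aged 1 was lowest. For Clec4e the log2 fold change was 0.25 (standard error 0.118), and for Clec4d it was -0.17 (standard error 0.181), and neither was called. Clec4e was called without aged 1 (0.32) and without aged 1 and aged 7 (0.37), and in the latter fit Clec4d was at 0.06.

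**Figure D3:**
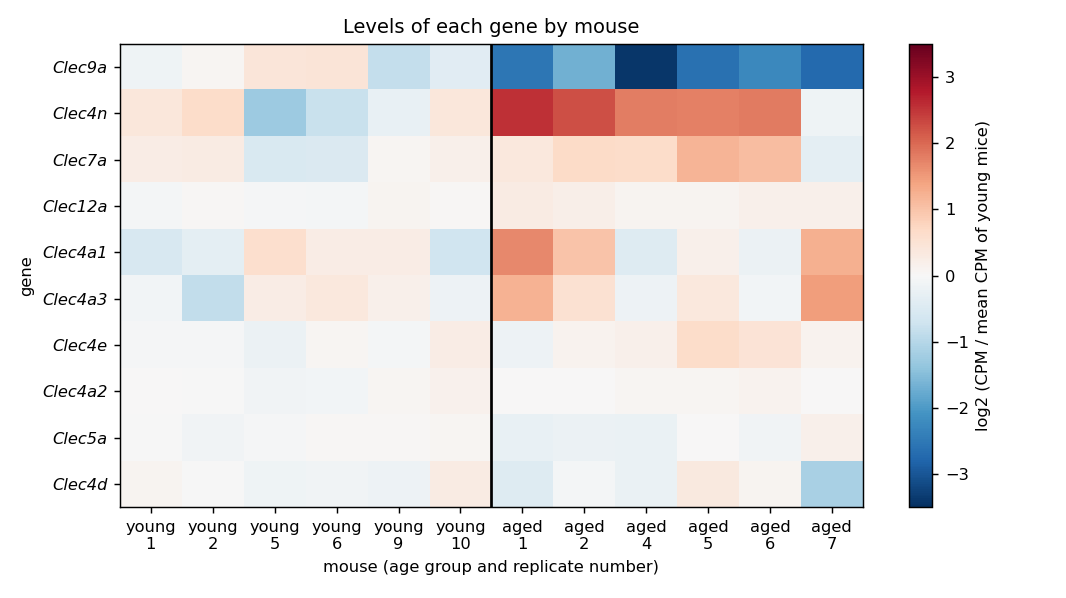
Level of each gene in each mouse as log2 of its CPM over the mean CPM of the 6 young mice, with blue for lower and red for higher values, young mice on the left and aged mice on the right. Aged 7 is the lowest of the aged mice for Clec4n, Clec7a and Clec4d, and aged 1, aged 2 and aged 7 are high for Clec4a1 and Clec4a3.

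Clec5a encodes MDL-1, a receptor of monocytes and neutrophils that binds dengue virus and signals through Tyrobp. It lies away from the clusters at chr6:40574898-40585805 on the minus strand, with 7 exons. Its levels were 261 to 354 CPM in aged mice (median 282) and 292 to 331 CPM in young mice (median 319). Aged 1, aged 2, aged 4 and aged 6 lay below all young mice, aged 5 lay within their range, and aged 7 had the highest level of all 12 mice. The log2 fold change was -0.10 (standard error 0.0774), and it was -0.15 without aged 7.

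The mice of an age differed from each other more for some of these genes than for others. Among aged mice the coefficient of variation was 57.1% for Clec4a1, 47.4% for Clec4a3, 45.4% for Clec4n, 39.2% for Clec9a, 33.7% for Clec7a and 31.5% for Clec4d. It was 20.2% for Clec4e, 12.3% for Clec5a, 4.81% for Clec12a and 3.32% for Clec4a2. Among young mice it was 45.3% for Clec4n, of which counting error gives 26.3%, and 35.8% for Clec4a1, and it was 4.67% for Clec5a and 4.62% for Clec12a. Apart from Clec4a2, which varied by 6.75% among young and 3.32% among aged mice, each gene had the higher coefficient among aged mice, by a small margin for Clec4n and Clec12a. For Clec9a counting error gives 34.0% of the 39.2% among aged mice and 16.9% of the 32.2% among young mice. The higher coefficient of Clec9a among aged mice is therefore not read as a larger difference between mice. No test of these differences in spread was made.

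The genes around the receptors were compared next, since 9 of the 10 genes lie in a pair of clusters. The Dectin-2 cluster (chr6:122921848-123289871, 368024 bases) holds 6 of them and the Dectin-1 cluster (chr6:129350244-129472777, 122534 bases) holds 3. Within 250 kb of the Dectin-2 cluster 11 other genes were counted and 4 were tested. Clec4b2, a close relative between Clec4a2 and Clec4n, was lower in aged mice by -1.05 ± 0.212 (log2 scale, standard error) at an adjusted p of 0.00128 in edgeR, with 1.07 to 1.88 CPM in aged and 2.15 to 4.38 CPM in young mice. Foxj2 (-0.30, adjusted p = 0.00471) and Necap1 (-0.38, adjusted p = 0.00927) were lower too by edgeR's test, and Slc2a3, a glucose transporter, was not called (0.23, adjusted p = 0.0607). Within 250 kb of the Dectin-1 cluster 20 other genes were counted and 6 were tested, of which 3 were called, each lower in aged mice, where 45.4% of all genes tested were called in either direction. Clec1b, a receptor of platelets next to Clec9a, was measured at 0.940 to 3.57 CPM in aged and at 1.27 to 6.40 CPM in young mice (-1.30, standard error 0.398, adjusted p = 0.0149). Clec1b was not called without young 5 and young 6 (-0.83, adjusted p = 0.158) or among sample numbers 11 to 19 (-0.96, adjusted p = 0.159). Annotated transcripts of Clec1b hold 4.02% of the runs of 50 bases of Clec9a, while the exons counted for both genes did not overlap in the table. Clec2d, a ligand of the NK cell receptor Klrb1 family, was measured at 24.0 to 40.2 CPM in aged and at 37.2 to 78.2 CPM in young mice (-0.81, adjusted p = 0.00568). Young 5 and young 6 had the highest levels of Clec2d, 78.2 and 76.5 CPM, and without both its log2 fold change was -0.42. Olr1, the receptor for oxidized LDL, was measured at 39.6 to 59.8 CPM in aged and at 65.9 to 90.2 CPM in young mice (-0.65, standard error 0.110, adjusted p = 0.000408), without overlap. The range of 250 kb was chosen with these values known.

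**Figure D4:**
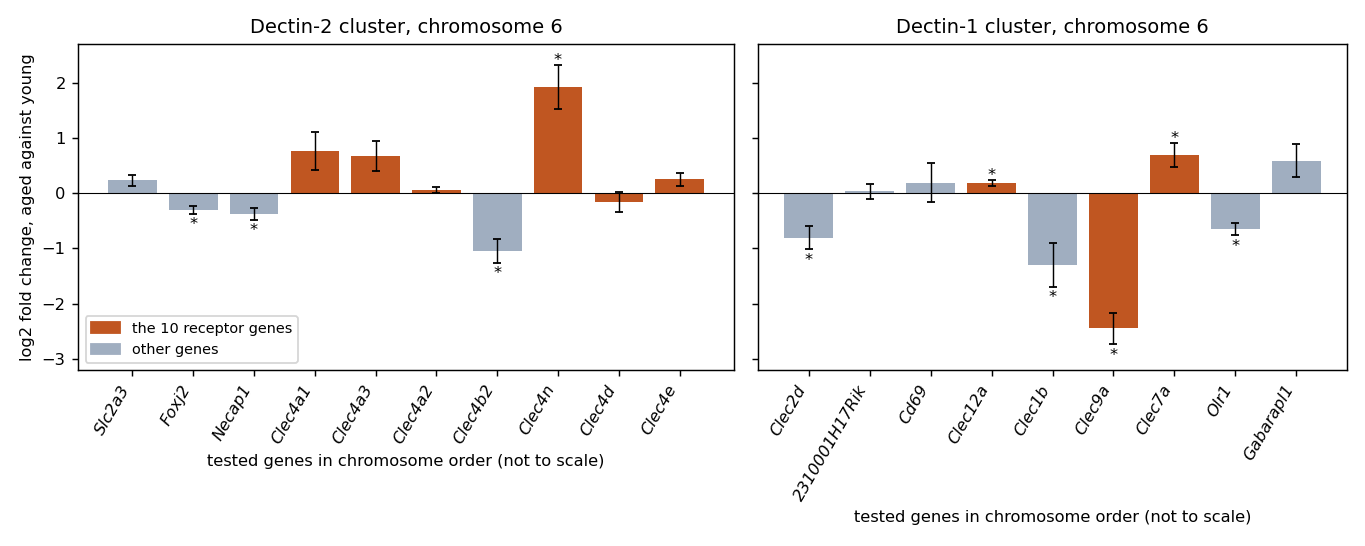
Log2 fold change in aged against young mice, with its standard error, of the tested genes of the Dectin-2 and Dectin-1 clusters and of the genes within 250 kb, in chromosome order and not to scale. The receptor genes are in orange, other genes in grey, and an asterisk marks an adjusted p-value under 0.05. Higher and lower genes lie side by side in both clusters, with Clec4b2 at -1.05 next to Clec4n at 1.92 and Clec9a at -2.45 next to Clec7a at 0.69.

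Beyond the 10 receptors, 63 other genes with a C-type lectin domain were in the table. Of these 13 passed the filter, 14 had no count in any mouse, and 3 were called higher and 4 lower, which is 53.8% of those tested beside 45.4% of all genes. Those called lower were Clec1b, Clec4b2, Clec2d and Olr1. Mrc1, the mannose receptor of macrophages, was measured at 5.64 to 134 CPM in aged mice (median 16.7) and at 5.27 to 7.69 CPM in young mice (median 6.68). With all 12 mice the log2 fold change of Mrc1 was 2.51 ± 0.648 (standard error) at an adjusted p of 0.00595 by edgeR, and it was 1.46 without aged 1, which held the 134 CPM. With limma-voom Mrc1 was at 1.61 and was not called (adjusted p = 0.086). Cd302, a receptor of endocytosis, was measured at 0.962 to 8.25 CPM in aged and at 0.586 to 1.53 CPM in young mice (1.71, adjusted p = 0.00663), and was also highest in aged 1, without which it was at 1.31. Selp, a selectin, was measured at 4.90 to 11.1 CPM in aged and at 3.15 to 7.07 CPM in young mice (0.70, adjusted p = 0.0125). Selp was not called without young 5 and young 6 (adjusted p = 0.0795), with the replicate block (adjusted p = 0.0901) or among sample numbers 11 to 19 (adjusted p = 0.209). Cd69, Klrb1f, Ly75, Cd93 and Thbd were among the genes not called.

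Of the genes that carry the receptors' signal, 54 were in the table and 50 were tested, with 8 called higher and 17 lower, which is 50% beside 45.4% of all genes. The balance of directions turned with the scaling, with 16 higher and 13 lower with upper quartile factors, 11 and 12 with a correction for gene length and 7 and 22 without TMM factors. The adaptors Fcer1g, Tyrobp and Hcst were called higher in aged mice, and with a correction for gene length their log2 fold changes were -0.07, 0.00 and 0.00 and none was called. Fcer1g, the partner of Clec4n, Clec4d and Clec4e, was measured at 609.5 to 779 CPM in aged and at 375 to 631 CPM in young mice (log2 fold change 0.41, adjusted p = 0.0111 from edgeR). Tyrobp, the partner of Clec5a, was measured at 742 to 1216 CPM in aged and at 489 to 909 CPM in young mice (0.53, adjusted p = 0.0109). Hcst, a related adaptor, was measured at 33.5 to 56.5 CPM in aged and at 22.4 to 38.7 CPM in young mice (0.62, adjusted p = 0.00333). These are short genes, with exons of 658, 566 and 442 bases in all. Young 5 and young 6 had the lowest levels of Fcer1g, 375 and 388 CPM, and without both the log2 fold changes of Fcer1g, Tyrobp and Hcst were 0.23, 0.31 and 0.42. Fcer1g was not called among sample numbers 11 to 19 (adjusted p = 0.0596).

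Syk and the enzymes next to it were called lower in aged mice. Syk was measured at 466 to 614 CPM in aged and at 718 to 878 CPM in young mice, without overlap (-0.52, standard error 0.0844, adjusted p = 0.000287 from edgeR). Plcg2 was measured at 415 to 502 CPM in aged and at 525 to 553 CPM in young mice (-0.27, adjusted p = 0.00229). Prkcd was lower by a smaller margin (-0.23, adjusted p = 0.0424) and was not called in 7 of the 12 fits without 1 mouse, without young 5 and young 6 (adjusted p = 0.163), without aged 1 and aged 7 (adjusted p = 0.167), with upper quartile factors, with no filter or among sample numbers 11 to 19. Of the complex downstream of Syk, Malt1 was lower (-0.32, adjusted p = 0.00314), and Card9 (-0.55, adjusted p = 0.0881) and Bcl10 (0.30, adjusted p = 0.0531) were not called. Bcl10 was called higher in 3 of the 12 fits without 1 mouse and without aged 1 and aged 7 (0.42, adjusted p = 0.0101). Card9 was measured at 99.3 CPM in young 5 and 109 CPM in young 6, at 39.3 to 42.2 CPM in the other young mice and at 36.7 to 48.3 CPM in aged mice. Its log2 fold change was 0.05 without young 5 and young 6. The phosphatases of the inhibitory receptors differed by small amounts. Ptpn6 was not called (0.08, adjusted p = 0.355, and -0.02 without TMM factors), and Ptpn11 (-0.19, adjusted p = 0.0136) and Inpp5d (-0.16, adjusted p = 0.0407) were called lower, with 0.05 and 0.03 under the correction for gene length, where neither was called. Inpp5d also lost its call in 10 of the 12 fits without 1 mouse and with the replicate block (-0.18, adjusted p = 0.165). Nor was it called without aged 1 and aged 7 (-0.11, adjusted p = 0.16) or among sample numbers 11 to 19 (-0.15, adjusted p = 0.156). Without young 5 and young 6 Inpp5d was called (-0.21, adjusted p = 0.0139). With the correction for gene length Syk was still called, at -0.30, and Plcg2, at -0.13, and Malt1, at -0.12, were not. Among the remaining signalling genes called higher by edgeR were Pycard (0.72, adjusted p = 4.75e-05), an inflammasome adaptor, and Ppp3r1 (0.43, adjusted p = 0.00116), a calcineurin subunit. The largest falls were those of Nlrp3 (-0.85, adjusted p = 0.000729), the inflammasome sensor that binds Pycard, Sos1 (-0.72, adjusted p = 6.68e-05), an exchange factor of Ras, and Tec (-0.64, adjusted p = 3.62e-05), a tyrosine kinase. Over the alternatives that left out no mouse Sos1 lay between -0.88 and -0.27 and kept its call.

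**Figure D5:**
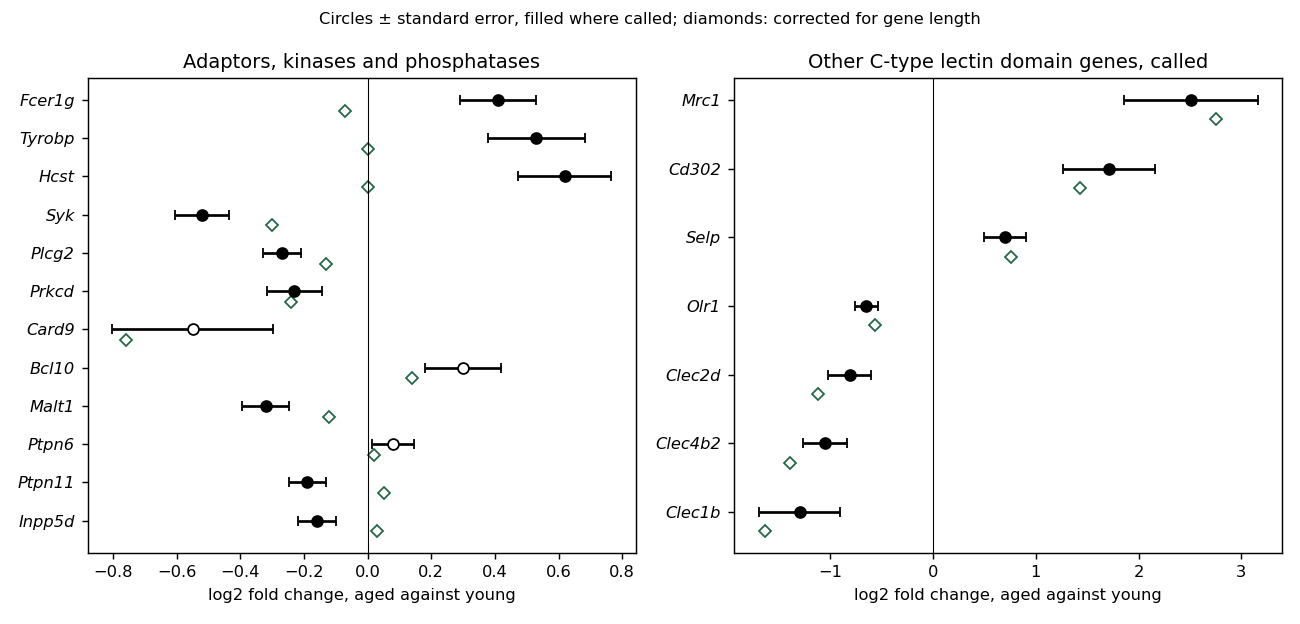
Log2 fold change in aged against young mice, with its standard error, of the adaptors, kinases and phosphatases next to the receptors (left) and of the 7 other C-type lectin domain genes that were called (right). Circles are filled where the adjusted p-value was under 0.05, and green diamonds give the value with a correction for gene length. The adaptors Fcer1g, Tyrobp and Hcst lie at 0.41, 0.53 and 0.62 and at or near 0 with the correction, while Syk stays below 0 at -0.52 and -0.30.

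Of 20 cytokine and early genes that these receptors are known to induce, 11 were tested by edgeR and 3 were called, each lower in aged mice. This is 27.3% of those tested, beside 45.4% of all genes called and 23.0% called lower. Ptgs2, the inducible cyclooxygenase, was measured at 9.46 to 33.0 CPM in aged and at 50.4 to 97.4 CPM in young mice, without overlap (-1.62, standard error 0.261, adjusted p = 0.000283 from edgeR). Ccl3, a chemokine, was measured at 1.5 to 3.73 CPM in aged and at 1.93 to 7.84 CPM in young mice (-1.15, adjusted p = 0.00654), and was not called without young 5 and young 6 (adjusted p = 0.0547), with the replicate block (-0.76, adjusted p = 0.232) or among sample numbers 11 to 19 (adjusted p = 0.0825). Egr1, an early transcription factor, was measured at 35.1 to 64.9 CPM in aged and at 49.0 to 120.3 CPM in young mice (-0.70, adjusted p = 0.0193). Egr1 was not called without young 6 (-0.55), with the replicate numbers as a block (-0.45) or among sample numbers 11 to 19 (-0.39, adjusted p = 0.247). Il1b, with means of 175 CPM in aged and 180.2 CPM in young mice (-0.04, adjusted p = 0.9), and Tnf, with 57.3 and 54.1 CPM (0.09, adjusted p = 0.498), were not called.

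Among the libraries with sample numbers 11 to 19, the log2 fold changes were -2.38 for Clec9a, 2.31 for Clec4n, 0.57 for Clec7a and 0.20 for Clec12a.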

How the data were processed

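RNA-seq of sorted bone marrow M-MDSCs was analysed in 12 libraries, 6 aged and 6 young. The authors deposited whole-number counts of fragments per gene, made with featureCounts 2.0.0 on mm10 exons. Per the file headers counting was stranded and needed both ends aligned, at a minimum mapping quality of 60. This minimum drops ambiguous fragments, at a loss for genes that have close copies. The aligner is not given in the sources used here.

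Counts were tested with edgeR 4.0.16 (R 4.3.3, limma 3.58.1): filterByExpr, TMM factors of 0.919 to 1.101, the quasi-likelihood test without covariates and Benjamini-Hochberg adjustment over 9742 genes. Standard errors came from the log2 fold change and its F statistic. CPM are counts over the TMM-scaled library total, and CPM per kb divides by the exon length in the table. The genes named are the 10 receptors, called genes of the lists of other C-type lectins and response genes (at most the 5 largest rises and falls), the adaptors, kinases and phosphatases next to the receptors with the 3 largest rises and falls of the other signalling genes, tested dendritic cell and proliferation markers, and the 5 genes closest to Clec9a. Genes around the clusters and genes named as examples were chosen after their values were seen. The members and lists were chosen with earlier results of these data known. Some genes that this rule names are not reported here.

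Alternatives were DESeq2 1.42.0, limma-voom, totals without TMM, upper quartile factors, no filter, at least 10 counts in every mouse, a loess correction for exon length, thinning to the smallest total, a replicate block and each mouse left out in turn. Fits without aged 1 and aged 7, without young 5 and young 6, and with sample numbers 11 to 19 alone were added after seeing the data. On simulated counts of 9694 genes for this comparison, 50.7% of 67 genes changed by 0.5 on the log2 scale, 88.1% of 67 changed by 1 and 100% of 66 changed by 2 were called. In the simulation 9494 genes were left unchanged, whereas 45.4% of all genes tested were called in the data. The adjustment of p-values was thus stricter in the simulation, and its shares do not carry over to the data. The common biological coefficient of variation was 15.7%. No 2 libraries of an age matched within sampling noise (smallest chi-square per gene 1.68). Nothing in the labels says more of how the mice were housed or processed, so p-values measure the spread between these libraries. Promoter windows came from RefSeq (GRCm38.p6) and shared runs of 50 bases from the GENCODE transcripts of that build.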

Additional observations from a re-analysis of the deposited data

Results flagged for a closer look

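In 122 groups of 6 mice (a gene in an age) 10 had a mouse far from the other 5, beyond Dixon's critical value of 0.625. Chance finds such a mouse in about 1 of 20 groups. None of the 10 receptors was among them.

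Aged 1 stood apart for Mrc1 with 134 CPM, for Clec1b with 3.57 CPM and for C1qc, a complement gene of macrophages, with 120.1 CPM. Aged 7 stood apart for Mki67 with 173 CPM, Top2a with 376 CPM and Cenpf with 46.3 CPM, each the highest of the aged mice, and for Nlrp3 with 40.5 CPM, the lowest. Aged 5 was highest for Fcer1g with 779 CPM. Among the young mice, young 6 was highest for Ptgs2 with 97.4 CPM and young 1 was lowest for Bst2 with 0.391 CPM.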

How the results depend on the processing

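Of the 238 values that the 10 receptors took under the alternatives, 220 kept their direction and their side of the threshold, 7 lost a call, 7 gained one and 4 changed sign. Clec9a was lower and Clec4n higher in all of these in which they were tested, which is no sign of stability, since the genes were chosen from this contrast. Of the receptors 4 were called in the main analysis and 3 to 6 when each mouse was left out in turn. With at least 10 counts in every mouse 2 of the 8 then tested were called, since Clec9a and Clec4n did not pass that filter, and without young 5 and young 6 the number was also 2, since Clec7a and Clec12a were not called. Clec4a2 was at -0.03 without TMM factors and at -0.01 without young 5 and young 6, and Clec4d was at 0.06 without aged 1 and aged 7.

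The number of other C-type lectin domain genes called was 7, and it was 11 with DESeq2 and 12 with no filter, where more genes were tested, and 5 with at least 10 counts in every mouse, after thinning, without young 5 and young 6 and among sample numbers 11 to 19. Of the response genes 3 were called, and 1 among sample numbers 11 to 19. Without TMM factors the median log2 fold change of all genes shifted by -0.09, and 1682 genes were called higher and 2762 lower, against 2185 and 2240. Ptpn6 was then at -0.02. Without young 5 and young 6, 3157 genes were called in all.

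With the correction for gene length Fcer1g was at -0.07, Tyrobp at 0.00, Ptpn11 at 0.05, Inpp5d at 0.03, Wdfy4 at 0.15, Runx2 at 0.17, Tcf4 at 0.38 and Bst2 at -0.03. Genes that were not called changed sign around 0 elsewhere. Tcf4 was at 0.01 with limma-voom, 0.03 with upper quartile factors, 0.04 after thinning and 0.07 without young 5 and young 6. Pcna was at 0.03 with upper quartile factors, 0.10 after thinning and 0.07 without young 5 and young 6. Cdk1 was at 0.00 and Aurkb at 0.06 after thinning. Without young 5 and young 6, Cdk1 was at 0.04, Aurkb at 0.10, Birc5 at 0.07, Ccr2 at 0.12 and Card9 at 0.05. Irf8 was at -0.09 without aged 1 and aged 7. With each mouse left out in turn Tcf4 lay between -0.08 and 0.06, Cdk1 between -0.14 and 0.02, Aurkb between -0.20 and 0.03 and Pcna between -0.11 and 0.05. The cause was not tested.

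The numbers 1, 2, 5 and 6 occur in both ages. The deviations of same-numbered mice from their age means correlated at -0.141, -0.0655, -0.245 and -0.246, so that the numbers were not taken as pairs. In the replicate block, mice whose number occurs in a single age add nothing to the difference between the ages. With the replicate block 3 receptors, 1 response gene and 3469 of all genes were called, Clec4d was at 0.03 and Pcna at 0.13. Depth limits Clec9a and Clec4n most, with counts down to 4 and 8.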

Other observations

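Several C-type lectin genes that did not pass the filter on low counts had their highest levels in single aged mice. Clec10a, a galactose receptor of macrophages and dendritic cells, was measured at 0.185 to 6.47 CPM in aged mice and at 0.116 to 0.868 CPM in young mice. Clec4b1, a gene of the Dectin-2 cluster, was measured at 0.0924 to 2.56 CPM in aged mice and at 0 to 0.214 CPM in young mice. Klrb1b was found with up to 35 counts in aged mice and with 0 counts in each young mouse. These genes were chosen after their values were seen, and no test was made of them in the main analysis.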
